A study of Homo sapiens with 48 samples.

Results

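Expression of 10 genes of the canonical Wnt and beta-catenin pathway was followed in 22Rv1 castration-resistant prostate cancer cells and their derivatives under inhibition of the Mediator kinases CDK8 and CDK19. The genes were picked by symbol from the 61815 genes of the table: CTNNB1, AXIN1, AXIN2, NKD1, RNF43, ZNRF3, LGR4, LEF1, TCF7 and TCF7L2. Of these, 9 were among the 20009 genes with enough reads to be tested. NKD1 was not, at 0 to 6 counts per library and at most 0.127 counts per 1000000 (CPM) in any group.

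The 48 RNA-seq libraries formed 16 groups of biological triplicates from 6 cell lines. Rv1-WT was the parental line, and Rv1-Luc carried a lentiviral firefly luciferase. The 4 remaining lines lacked both endogenous kinases after CRISPR/Cas9 editing (dKO) and had been given back a single kinase by lentivirus: wild-type CDK8 (dKO-8), kinase-dead CDK8 with the D173A substitution (dKO-8M), wild-type CDK19 (dKO-19) or kinase-dead CDK19 with D173A (dKO-19M). The CDK8 lines were made from dKO cells that already held an insert-free vector, whereas the CDK19 lines were made from the dKO cells directly. Each line was kept for 72 hours with 500 nM SNX631, a selective CDK8/19 inhibitor, or with 0.1% DMSO as the vehicle. All 6 lines were grown with fetal bovine serum (FBS), which contains androgen, in 12 groups, and only Rv1-WT and Rv1-Luc also under androgen depletion, in serum stripped with charcoal (CSS), in 4 groups. Each manipulated line was represented by a single derivative, so the effect of a transgene and the history of that derivative cannot be told apart.

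Canonical Wnt signalling acts by stabilising beta-catenin, the product of CTNNB1. Without a Wnt ligand, a destruction complex built on the scaffolds AXIN1 and AXIN2 marks beta-catenin for degradation, and with a ligand beta-catenin enters the nucleus and binds the DNA-binding factors LEF1, TCF7 and TCF7L2. RNF43 and ZNRF3 are membrane ubiquitin ligases that remove Frizzled receptors from the cell surface, LGR4 is an R-spondin receptor that holds those ligases back, and NKD1 is an inhibitor that binds Dishevelled. AXIN2, NKD1, RNF43, ZNRF3, LEF1 and TCF7 are also induced by the pathway in many tissues, which makes them feedback genes. CDK8 is a known coactivator of beta-catenin, and beta-catenin can bind the androgen receptor in prostate cells.

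The libraries held 13.2 to 31.5 M counts (M for 1000000) with a median of 21.4 M. Rv1-WT was the shallowest line (13.2 to 18.2 M), and no library of another line fell below 19.3 M. With all libraries thinned to the smallest total, the 9 genes kept 3 of 3 calls and 6 of 7 changes between Rv1-Luc and Rv1-WT. Replicate 1 of dKO-19M with vehicle stood apart from its group, with chi-square values of 15.1 and 15.6 per degree of freedom against the other replicates where the median over 48 replicate pairs was 1.98. Replicate 1 of Rv1-Luc with vehicle in FBS was the next, at 4.73 and 8.84. Luciferase was counted only in Rv1-Luc. CDK8 was highest in dKO-8 (64.2 to 68.7 CPM as group means) and dKO-8M (123 to 131 CPM) and lay between 23.4 and 28.5 CPM elsewhere, while CDK19 was highest in dKO-19 (478 to 510 CPM) and dKO-19M (332 to 351 CPM). Transcripts of the edited genes were still counted in the dKO lines, so the RNA does not test the knockout. All 9 luminal prostate markers were detected in every line (summed level 2600 to 6310 CPM), and the 3 basal markers summed to at most 0.434 CPM. The luminal markers did not move together between lines. As means over all libraries of a line, KRT8 was 528 CPM in Rv1-WT and 2850 CPM in dKO-19M. In the same lines KLK2 was 13 and 0.579 CPM, and KLK3 was 7.39 and 0.48 CPM. T lymphocytes use TCF7 and LEF1, and their 6 markers summed to at most 0.927 CPM in any library, while the 7 B and plasma cell markers summed to 4.47 to 29.1 CPM in Rv1-Luc and to at most 1.4 CPM in the other lines. In these bulk samples fewer cells of a type and less RNA per cell cannot be told apart.

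Per kilobase of exon, averaged over all libraries, AXIN2 (43.6 CPM per kb, group means 5.24 to 89.6) and CTNNB1 (34.2 CPM per kb) were the most abundant of the tested genes, followed by LEF1 (9.82), AXIN1 (9.42), ZNRF3 (4.69), RNF43 (2.87), LGR4 (2.56), TCF7L2 (1.94) and TCF7 (0.399). On GRCh38, GENCODE release 29 places CTNNB1 at chr3:41194741-41260096 and AXIN1 at chr16:287440-352673. AXIN2 lies at chr17:65528563-65561647, RNF43 at chr17:58352500-58417595 and LEF1 at chr4:108047545-108168956, all on the minus strand. ZNRF3 lies at chr22:28883592-29057487, LGR4 at chr11:27365961-27472775, TCF7 at chr5:134114711-134151865, TCF7L2 at chr10:112950250-113167678 and NKD1 at chr16:50548330-50649249. AXIN2 shares 25.2% of its exon bases, and RNF43 57.6%, with annotated read-through transcripts on the same strand (ENSG00000266076 and ENSG00000285897), and their counts were fractional in 62.5% and 58.3% of libraries. RNF43 also shares 20.3% of its exon bases with TSPOAP1-AS1 on the opposite strand. SUPT4H1, on the same strand, shares 1.91% of the RNF43 exon bases, and its counts were fractional in 66.7% of libraries. The read-through transcript that overlaps RNF43 stood at 1.39 to 2.77 times the RNF43 level in the 16 groups. This ratio is of counts as deposited, and how shared reads were split between these entries is not known. The place of RNF43 in the order above is thus uncertain. Values of AXIN2 and RNF43 are therefore uncertain in their level, and results that moved with the read-through counts are given beside them.

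RefSeq windows from 250 bases before to 50 bases after a transcription start (GRCh38.p14) matched 7 of the 10 genes with 11 entries, and AXIN2, NKD1 and ZNRF3 had no entry. The first of 2 windows of RNF43 and the window of LEF1, the genes most often changed in opposite directions by SNX631, and the second window of TCF7 are shown 5′ to 3′ in the direction of each gene. Forms of the TCF/LEF motif were searched on both strands, namely the letters CTTTGAA and CTTTGAT as well as CTTTGTA and also CTTTGTT. A match is in capitals. The RNF43 window shown is chr17:58417485-58417784 on the minus strand, the LEF1 window chr4:108166252-108166551 on the minus strand and the TCF7 window chr5:134123368-134123667 on the plus strand.
RNF43: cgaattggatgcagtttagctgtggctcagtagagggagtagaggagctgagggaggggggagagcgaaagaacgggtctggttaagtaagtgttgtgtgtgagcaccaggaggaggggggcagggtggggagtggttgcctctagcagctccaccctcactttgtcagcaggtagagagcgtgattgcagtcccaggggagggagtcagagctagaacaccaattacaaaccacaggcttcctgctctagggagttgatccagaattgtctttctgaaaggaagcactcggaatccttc
LEF1: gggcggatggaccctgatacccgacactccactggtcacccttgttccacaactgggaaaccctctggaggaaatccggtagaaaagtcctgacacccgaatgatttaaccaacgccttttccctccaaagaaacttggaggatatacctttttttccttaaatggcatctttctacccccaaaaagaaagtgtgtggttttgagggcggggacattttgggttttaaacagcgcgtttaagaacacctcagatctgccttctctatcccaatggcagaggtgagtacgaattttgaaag
TCF7: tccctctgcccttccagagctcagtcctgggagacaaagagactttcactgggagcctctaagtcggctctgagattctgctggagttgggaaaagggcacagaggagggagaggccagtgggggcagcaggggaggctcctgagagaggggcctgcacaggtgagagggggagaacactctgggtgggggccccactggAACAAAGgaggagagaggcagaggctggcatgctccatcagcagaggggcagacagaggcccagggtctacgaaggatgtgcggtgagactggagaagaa
The TCF7 match, AACAAAG, lies 50 to 44 bases before the start and reads as the motif on the opposite strand. A window of TCF7L2 (chr10:113126383-113126682, plus strand) held CTTTGTT 133 to 127 bases before the start. The other 9 of the 11 windows, RNF43 and LEF1 included, held none of these letters, and of all 35116 RefSeq windows 13.8% held a match. The LEF1 window lies inside the GENCODE span of the gene, whose 5′ end is at 108168956, so that end was not searched. The windows of TCF7 and TCF7L2 with a match also lie inside their genes.

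The first question was how inhibition of the Mediator kinases changed these genes where a kinase was active. RNF43 rose in every one of the 6 kinase-active settings, LEF1 fell in 4 of them, and AXIN2 rose in Rv1-WT and Rv1-Luc but fell in dKO-8 and dKO-19. LGR4 fell in 2 settings, CTNNB1, AXIN1 and ZNRF3 changed in 1 each, and TCF7 and TCF7L2 in none. Differences are log2 fold changes of SNX631 against vehicle from edgeR's quasi-likelihood fit, a change means a Benjamini-Hochberg adjusted p below 0.05 over all tested genes, and a call means adjusted p below 0.01 with a fold above 1.5. Over the 54 pairs of gene and kinase-active setting, 21 changed and 7 were calls, where in the single settings 13.5% to 26.5% of all genes changed and 1.71% to 4.23% were called.

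RNF43, the Frizzled-removing ligase, was called in 5 of the 6 settings, and AXIN2 and LEF1 gave the other 2 calls. In Rv1-WT in FBS it stood at 20.7, 19.1 and 23.6 CPM with vehicle and at 30.5, 29.5 and 30.4 CPM with SNX631, and in CSS at 17.7, 18.8 and 19.3 CPM against 40.7, 37.6 and 36.6 CPM. No SNX631 library overlapped the vehicle libraries in either medium. The log2 change was 0.51 (SE 0.0805, adjusted p = 2.13e-06, a fold of 1.43 that missed the call) with androgen and 1.04 (SE 0.0775, adjusted p = 1.03e-16) under depletion. The effect in CSS exceeded that in FBS by 0.53 (adjusted p = 0.0023). In Rv1-Luc in FBS RNF43 went from 15.4, 11.6 and 12.5 CPM to 24.0, 23.5 and 25.5 CPM, and in CSS from 11.3, 11.9 and 11.9 CPM to 24.7, 25.3 and 32.3 CPM. These were log2 changes of 0.88 (adjusted p = 1.06e-13) and 1.24 (adjusted p = 5.5e-19), the latter being the highest fold of the 6 settings at 2.36. Here the difference between media was 0.35 and did not pass (adjusted p = 0.201), and it was 0.15 with the read-through counts described above added.

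In the reconstituted lines RNF43 rose where the kinase put back was active. In dKO-8 it was 11.9, 12.4 and 12.2 CPM with vehicle and 21.0, 20.9 and 23.2 CPM with SNX631, and in dKO-19 19.4, 19.6 and 19.1 CPM against 36.4, 33.2 and 33.9 CPM. Both log2 changes were 0.83 (adjusted p = 9.73e-12 and 1.11e-13), and they differed from each other by 0.002 with a 95% interval of -0.23 to 0.24. In dKO-8M the values were 20.6, 22.6 and 22.1 CPM with vehicle and 24.6, 24.9 and 25.6 CPM with SNX631 (log2 change 0.20, adjusted p = 0.277). These groups did not overlap although the change did not pass, and fitted on the dKO-8M libraries alone it did (adjusted p = 0.0241). In dKO-19M they were 11.9, 12.6 and 13.2 CPM against 12.7, 12.9 and 12.5 CPM (log2 change 0.02, adjusted p = 0.964). The effect was larger by 0.63 in dKO-8 than in dKO-8M (adjusted p = 7.65e-05) and by 0.82 in dKO-19 than in dKO-19M (adjusted p = 3.36e-07). The read-through transcript itself rose by 0.27 to 0.56 on the log2 scale in the 6 kinase-active settings, and none of these rises was a call. SUPT4H1 rose by 0.32 in Rv1-WT in CSS and by 0.33 and 0.29 in Rv1-Luc in FBS and CSS. Its change did not pass in the other kinase-active settings. When the read-through counts were added to RNF43, all 6 effects stayed above 0 and passed (log2 change 0.36 to 0.77). The calls in dKO-8 (0.46) and dKO-19 (0.53) were lost. The dKO-8M value was then 0.12, the effect in dKO-8 exceeded it by 0.34 (adjusted p = 0.00127), and that in dKO-19 exceeded the dKO-19M effect by 0.59 (adjusted p = 1.6e-08).

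**Figure D1:**
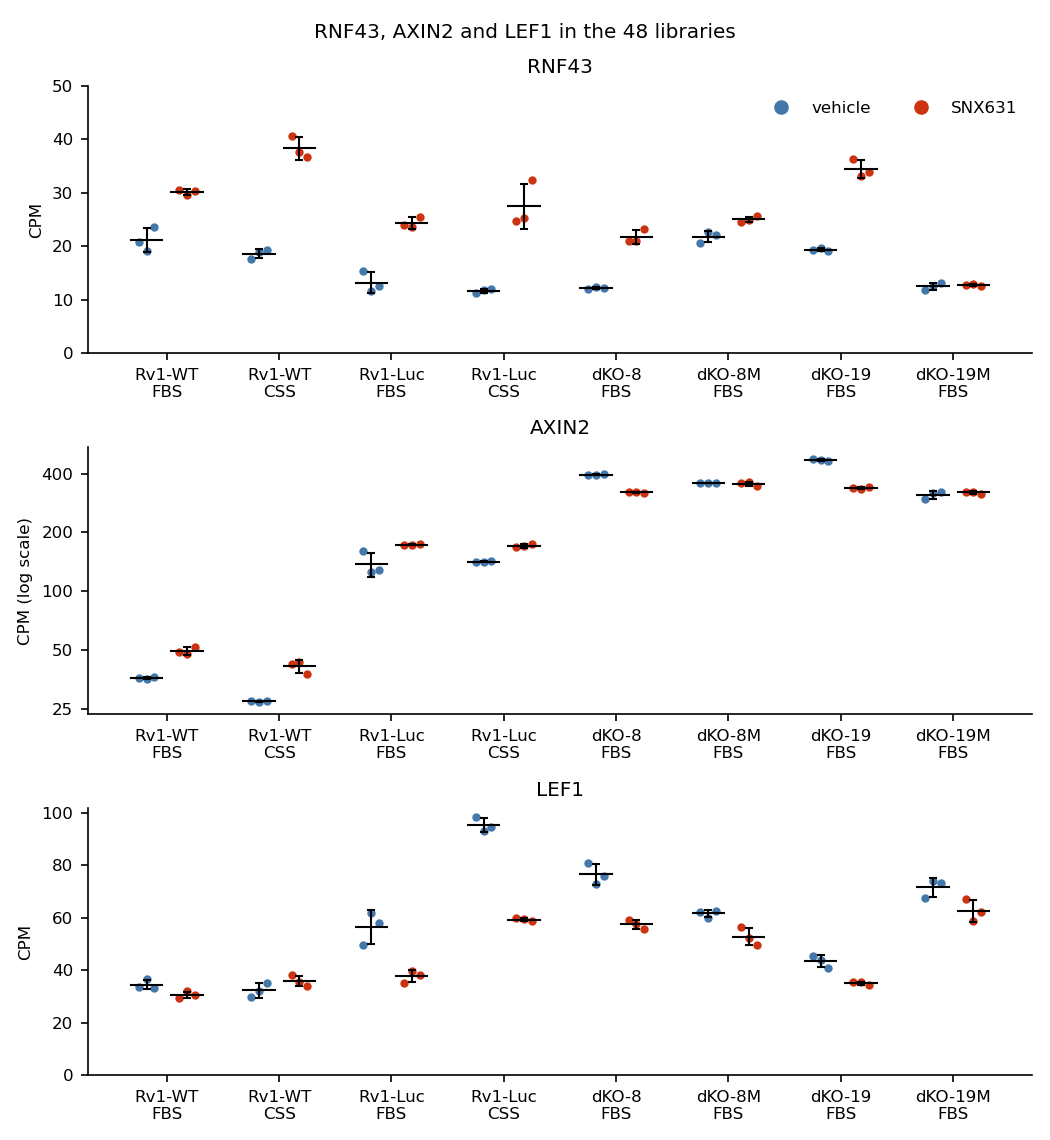
Levels of RNF43, AXIN2 and LEF1 in CPM (AXIN2 on a log axis) by cell line and medium, with each library as a point, the mean as a line and the SD as a bar for vehicle and SNX631 separately. RNF43 is higher with SNX631 in all 6 kinase-active settings without overlap, AXIN2 spans 27.4 to 469 CPM between group means, and LEF1 with vehicle is highest in Rv1-Luc in CSS at 95.2 CPM.

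AXIN2, the scaffold most used as a readout of the pathway, changed in all 6 kinase-active settings but in opposite directions. In Rv1-WT in FBS it was 36.1, 35.6 and 36.5 CPM with vehicle and 49.1, 47.95 and 52.1 CPM with SNX631 (log2 change 0.46, adjusted p = 2.04e-08). In Rv1-WT in CSS it went from 27.5, 27.3 and 27.5 CPM to 42.7, 43.8 and 37.7 CPM (log2 change 0.60, adjusted p = 1.62e-11), its only call. That call, at a fold of 1.51, was lost when replicate 1 or replicate 2 of Rv1-WT with SNX631 in CSS was left out and when the read-through counts were added (0.56). In Rv1-Luc the change was 0.32 in FBS, from 161, 126 and 129 CPM to 173, 172 and 175 CPM (adjusted p = 1.4e-07), and 0.27 in CSS, from 142, 141 and 143 CPM to 168, 170 and 175 CPM (adjusted p = 8.33e-06).

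In dKO-8 AXIN2 fell from 395, 392 and 397 CPM to 322, 321 and 319 CPM (log2 change -0.30, adjusted p = 6.8e-07). In dKO-19 it fell from 473, 470 and 463 CPM to 337, 335 and 343 CPM (log2 change -0.47, adjusted p = 5.95e-13). The groups did not overlap in either line. In dKO-8M the libraries overlapped (358, 359 and 356 CPM against 360, 361 and 345 CPM, log2 change -0.01, adjusted p = 0.98), as they did in dKO-19M (296, 320 and 321 CPM against 323, 322 and 316 CPM, log2 change 0.04, adjusted p = 0.757). The active lines differed from their kinase-dead partners by -0.29 for CDK8 (adjusted p = 0.00136) and -0.51 for CDK19 (adjusted p = 9.56e-09). In a comparison added after the values were seen, the AXIN2 effect in the 2 active dKO lines lay 0.78 below that in Rv1-WT and Rv1-Luc in FBS (adjusted p = 4.78e-19). AXIN1 was the only other gene to differ there, at -0.17 (adjusted p = 0.0218), and 12.7% of all genes did. The dKO lines also had the highest AXIN2 levels, and whether the direction goes with the level or with the line was not tested.

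LEF1, a DNA-binding partner of beta-catenin, fell with SNX631 in Rv1-Luc, dKO-8 and dKO-19. The largest fall was in Rv1-Luc in CSS, from 98.3, 92.9 and 94.5 CPM to 59.8, 59.5 and 58.5 CPM (log2 change -0.68, adjusted p = 1.02e-14), which was its only call. In Rv1-Luc in FBS it went from 49.5, 61.8 and 57.9 CPM to 35.1, 39.7 and 38.3 CPM (log2 change -0.58, adjusted p = 2.8e-11), just inside the fold limit, and this became a call when vehicle replicate 1, SNX631 replicate 2 or SNX631 replicate 3 was left out. In dKO-8 it fell from 80.9, 72.7 and 75.9 CPM to 59.2, 57.4 and 55.7 CPM (log2 change -0.41, adjusted p = 1.83e-07), and in dKO-19 from 45.5, 43.7 and 41.0 CPM to 35.4, 35.3 and 34.2 CPM (log2 change -0.31, adjusted p = 0.000195). In all 4 of these settings every SNX631 library lay below every vehicle library.

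Rv1-WT did not show a LEF1 change that passed in either medium, although in FBS its SNX631 libraries too all lay below its vehicle libraries. Its LEF1 level was 33.7, 36.6 and 33.2 CPM with vehicle and 29.4, 31.9 and 30.4 CPM with SNX631 in FBS (log2 change -0.18, adjusted p = 0.0976), and 29.7, 31.9 and 35.2 CPM against 38.1, 35.6 and 34.0 CPM in CSS (log2 change 0.15, adjusted p = 0.109). The effect in Rv1-Luc in FBS was lower than that in Rv1-WT by 0.40 on the log2 scale (difference -0.40, adjusted p = 0.0119). In the kinase-dead lines LEF1 also had lower means with SNX631, at -0.22 in dKO-8M (adjusted p = 0.066) and -0.19 in dKO-19M (adjusted p = 0.0545), and there too no SNX631 library reached the vehicle libraries (49.7 to 56.2 against 59.9 to 62.5 CPM, and 58.7 to 66.9 against 67.4 to 74.0 CPM). With replicate numbers as a block, the dKO-19M fall passed (adjusted p = 0.0468). The difference between active and kinase-dead lines, -0.15 with a 95% interval of -0.27 to -0.03, did not pass (adjusted p = 0.088). Over all other processing choices the adjusted p of the LEF1 change ran from 0.000607 to 0.264 in dKO-8M and from 0.0193 to 0.434 in dKO-19M. It passed in both lines with no filter on low counts and with DESeq2, and in dKO-8M also with library size only and with the compared libraries alone.

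Of the other receptor-level genes, LGR4 fell in Rv1-WT in CSS from 44.3, 42.3 and 37.6 CPM to 28.6, 30.7 and 31.6 CPM (log2 change -0.45, adjusted p = 7.25e-06) and in Rv1-Luc in CSS by 0.31 on the log2 scale (adjusted p = 0.00777). Its log2 changes in FBS lay between -0.26 and 0.02 over the 6 lines and none passed. The lowest was in the kinase-dead line dKO-8M, and dKO-19M had -0.16. In dKO-8M no SNX631 library reached the vehicle libraries (8.65 to 9.87 against 10.5 to 11.5 CPM). The same held for Rv1-WT (16.9 to 19.1 against 21.0 to 21.2 CPM). ZNRF3, the paralog of RNF43, rose only in Rv1-WT in CSS, from 25.5, 27.7 and 24.8 CPM to 33.6, 31.5 and 33.5 CPM (log2 change 0.34, adjusted p = 5.36e-05), and its other 5 kinase-active effects lay between -0.01 and 0.09. CTNNB1 itself changed in a single setting, a fall of 0.12 on the log2 scale in Rv1-WT in CSS (adjusted p = 0.00842), and in dKO-8 and dKO-19 the 95% intervals of its effect ran from -0.01 to 0.12 and from -0.05 to 0.08. AXIN1 fell by 0.19 on the log2 scale in dKO-19 (adjusted p = 0.00618). TCF7 and TCF7L2 did not pass in any of the 8 settings.

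**Figure D2:**
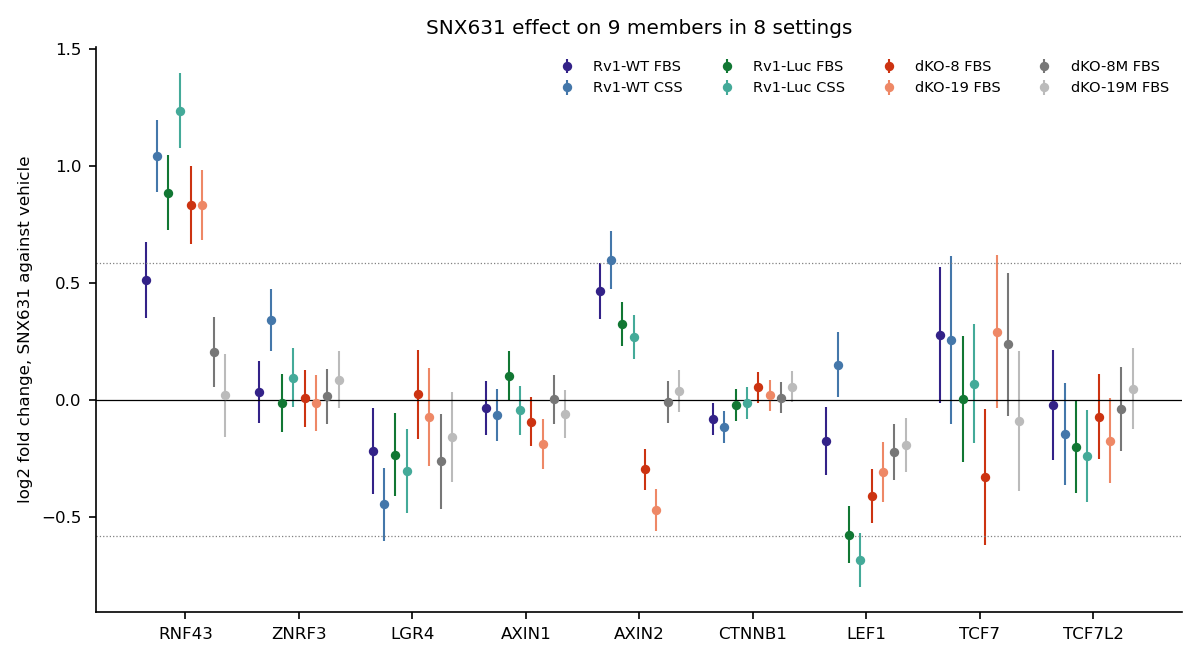
Log2 fold changes of SNX631 against vehicle (y axis) for the 9 tested genes (x axis) in the 8 settings, with 95% intervals as bars and dotted lines at a fold of 1.5. RNF43 is above 0 in the 6 kinase-active settings (0.51 to 1.24) with intervals that exclude 0, and AXIN2 is on both sides of 0 (-0.47 to 0.60).

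By setting, the share of the 9 genes can be read against all 20009. In Rv1-WT in FBS 0 of 9 were called, where 2.39% of all genes were, and 2 changed, where 14.5% did. In Rv1-WT in CSS 2 were called (4.23% of all genes) and 5 changed (26.5%). In Rv1-Luc the counts were 1 called (3.67%) and 3 changed (20.3%) in FBS, and 2 called (4.06%) and 4 changed (23.9%) in CSS. In dKO-8 there was 1 call (1.71%) with 3 changed (13.5%), and in dKO-19 there was 1 call (3.41%) with 4 changed (20.6%). The medians over the 9 genes lay between -0.07 and 0.15 on the log2 scale, and those over all tested genes between -0.0017 and 0.0072.

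In the kinase-dead lines 0 of the 9 genes changed. Over all genes 0.015% were called and 0.485% changed in dKO-8M, and 0.09% were called and 2.41% changed in dKO-19M, while 1910 and 2951 genes had an unadjusted p below 0.05. Under other processing choices 0 to 2 pairs of gene and line passed there, and those that did were LEF1 or RNF43. The difference in effect between dKO-8 and dKO-8M passed for 2 of 9 genes (RNF43 and AXIN2, with 6.2% of all genes), and between dKO-19 and dKO-19M for the same 2 (9.87% of all genes). With both pairs of lines averaged, RNF43 differed by 0.72 (adjusted p = 4.27e-10, or 0.46 and no longer a call with read-through counts) and AXIN2 by -0.40 (adjusted p = 4.11e-10), and 13.3% of all genes passed. None of the 9 differed between dKO-19 and dKO-8 (4.77% of all genes). Between media, RNF43 alone differed in Rv1-WT (3.13% of all genes) and none in Rv1-Luc (0.51%), and LEF1 alone differed when the 2 lines were set against each other in FBS (1.48%).

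Averaged over the 6 kinase-active settings, 7 of the 9 genes changed and 1 was called, where 43.8% of all genes changed and 3.81% were called. RNF43 was the call at 0.89 (fold 1.85, adjusted p = 1.58e-31), and this call was lost with read-through counts added (0.58, fold 1.49). LEF1 averaged -0.34 (adjusted p = 1.01e-16), LGR4 -0.21 (adjusted p = 4.42e-06), AXIN2 0.15 (adjusted p = 3.03e-08) and TCF7L2 -0.14 (adjusted p = 0.00338), while ZNRF3 and AXIN1 moved by 0.07 (adjusted p = 0.0164) and -0.06 (adjusted p = 0.038). The AXIN2 mean joins settings of opposite direction and describes none of them.

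The second question was what androgen depletion did. In Rv1-WT it lowered CTNNB1, TCF7 and AXIN2 and raised LGR4, whereas in Rv1-Luc it raised LEF1 and left those 4 genes without a change that passed under vehicle. In Rv1-WT with vehicle LGR4, the R-spondin receptor, went from 21.2, 21.2 and 21.0 CPM in FBS to 44.3, 42.3 and 37.6 CPM in CSS (log2 change 0.97, adjusted p = 4.17e-15). TCF7, a DNA-binding factor, went from 4.35, 4.62 and 5.90 CPM to 2.11, 2.91 and 2.49 CPM (log2 change -0.99, adjusted p = 1.41e-06). CTNNB1 went from 439, 451 and 427 CPM to 301, 309 and 312 CPM (log2 change -0.51, adjusted p = 2.22e-19), a fall to 0.701 of the level in FBS that missed the fold limit. AXIN2 fell by 0.40 on the log2 scale (adjusted p = 5.46e-07) and ZNRF3 by 0.29 on the same scale (adjusted p = 0.00034). For all 5 genes the FBS and CSS libraries did not overlap.

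Under SNX631 the depletion effects in Rv1-WT were 0.74 for LGR4 (adjusted p = 2.15e-10), -1.01 for TCF7 (adjusted p = 2.36e-07), -0.55 for CTNNB1 (adjusted p = 2.87e-20) and -0.27 for AXIN2 (adjusted p = 0.000141). RNF43 (0.34, adjusted p = 0.000104) and LEF1 (0.23, adjusted p = 0.00592) rose with depletion there, where with vehicle their values were -0.19 (adjusted p = 0.0691) and -0.09 (adjusted p = 0.312). With read-through counts added the RNF43 value with vehicle was -0.14 and passed (adjusted p = 0.0333). Among the 9 genes 2 were called and 5 changed with vehicle (10.9% and 44.9% of all genes), and 2 were called and 6 changed with SNX631 (7.83% and 40.6% of all genes).

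In Rv1-Luc the gene that responded to depletion was LEF1, which went with vehicle from 49.5, 61.8 and 57.9 CPM to 98.3, 92.9 and 94.5 CPM (log2 change 0.76, adjusted p = 5.02e-16) and rose by 0.65 with SNX631 (adjusted p = 1.92e-12). The groups were well separated, and LEF1 was the only call of the 9 under either treatment (1.49% of all genes with vehicle and 1.51% with SNX631). It was also the only gene of the 9 to change with vehicle (14% of all genes), and with SNX631 TCF7 changed too, by 0.42 (adjusted p = 0.0244, 12.7% of all genes). CTNNB1 moved by -0.04 (95% interval -0.11 to 0.03) and LGR4 by 0.12 (-0.06 to 0.29).

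Tested directly with vehicle, depletion acted differently in the luciferase line and the parental line on 6 of the 9 genes, where 34.1% of all genes differed. The differences, Rv1-Luc minus Rv1-WT, were 1.34 for TCF7 (adjusted p = 7.23e-07), 0.85 for LEF1 (adjusted p = 3.09e-11), 0.47 for CTNNB1 (adjusted p = 4.77e-12), 0.43 for AXIN2 (adjusted p = 1.26e-05), 0.30 for ZNRF3 (adjusted p = 0.00864) and -0.85 for LGR4 (adjusted p = 5.24e-08). RNF43 differed by 0.01 with an interval of -0.24 to 0.25.

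**Figure D3:**
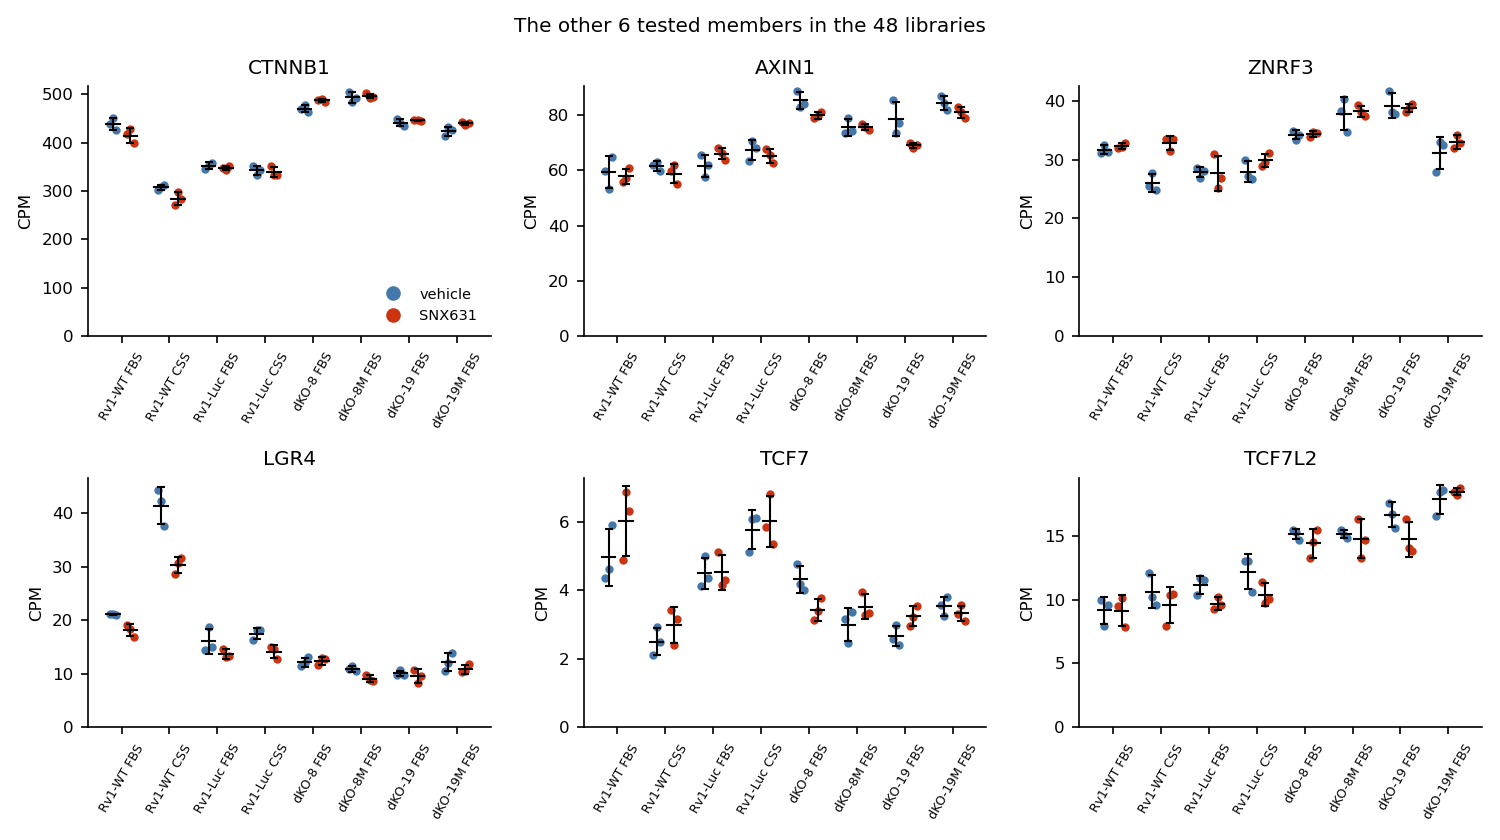
Levels in CPM of the other 6 tested genes by cell line and medium, with libraries as points, means as lines and SDs as bars for vehicle and SNX631. In Rv1-WT, CSS libraries lie below FBS libraries for CTNNB1 and TCF7 and above them for LGR4, and AXIN1 and TCF7L2 are higher in the dKO lines than in Rv1-WT.

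The third question was how lines with a kinase-dead enzyme differed from those with the active enzyme when no inhibitor was added. Several genes had opposite signs in the CDK8 and CDK19 pairs, a difference that was not itself tested. RNF43 in dKO-8M exceeded its level in dKO-8 by 0.84 (adjusted p = 1.66e-12) but in dKO-19M it was below its level in dKO-19 (difference -0.63, adjusted p = 7.35e-09). LEF1 went the other way, at -0.31 for CDK8 (adjusted p = 1.49e-05) and 0.72 for CDK19 (adjusted p = 2.38e-15), and so did TCF7, at -0.52 (adjusted p = 0.00425) and 0.42 (adjusted p = 0.0315). With read-through counts added, both RNF43 calls were lost (0.44 and -0.28).

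AXIN2 was lower in both kinase-dead lines, at -0.14 for CDK8 (adjusted p = 0.0104) and -0.59 for CDK19 (adjusted p = 6.2e-17). The CDK19 difference, at 0.666 of the active level, was a call with all libraries but not without replicate 1 of dKO-19M with vehicle (-0.56), the library that stood apart. In the CDK19 pair ZNRF3 was lower (-0.33, adjusted p = 9.13e-06) and LGR4 higher (0.27, adjusted p = 0.0249), and in the CDK8 pair AXIN1 was lower (-0.18, adjusted p = 0.00658). In the CDK8 pair 1 of 9 genes was called and 5 changed, where 7.03% and 30.5% of all genes did. In the CDK19 pair 3 were called and 6 changed, where 7.6% and 33.3% did. Each arm was a single derivative, and the CDK8 transcript itself had more reads in dKO-8M (group means 123 to 131 against 64.2 to 68.7 CPM in dKO-8), so kinase activity, transgene level and line cannot be told apart in these contrasts.

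**Figure D4:**
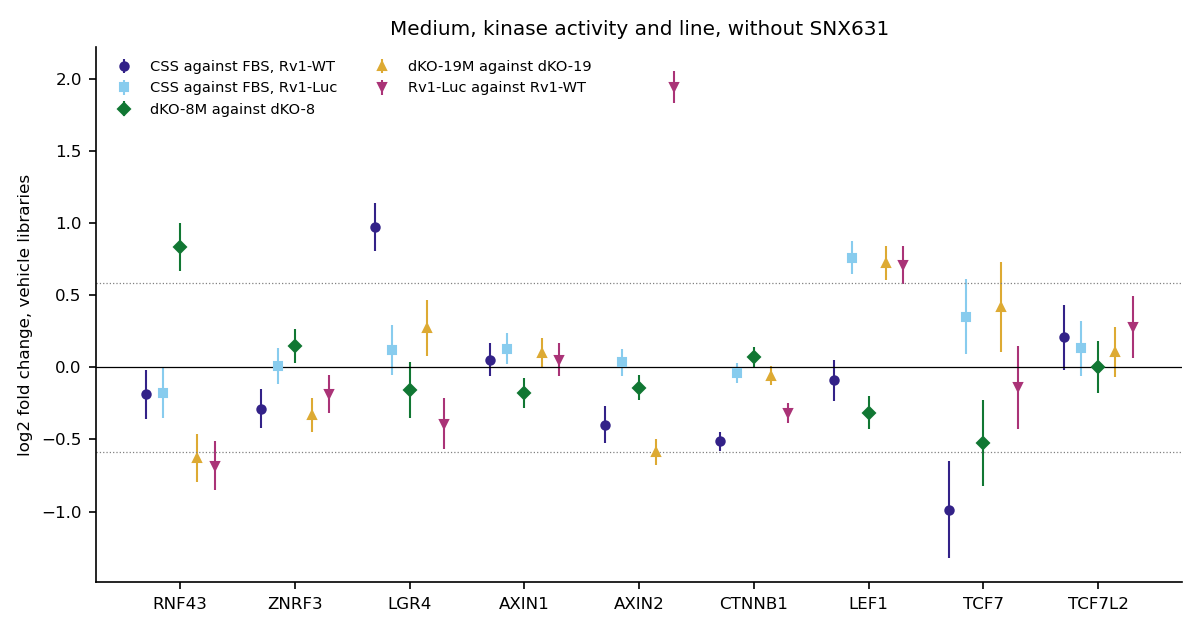
Log2 fold changes (y axis) of the 9 tested genes (x axis) in vehicle libraries for androgen depletion in Rv1-WT and Rv1-Luc, for kinase-dead against active CDK8 and CDK19, and for Rv1-Luc against Rv1-WT, with 95% intervals as bars and dotted lines at a fold of 1.5. AXIN2 in Rv1-Luc against Rv1-WT is the highest value at 1.94, and RNF43, LEF1 and TCF7 have opposite signs in the CDK8 and CDK19 pairs.

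Between lines, AXIN2 varied more than any other of the 9 genes. Its group means fell into 3 ranges without overlap, 27.4 to 49.7 CPM in Rv1-WT, 138 to 173 CPM in Rv1-Luc and 312 to 469 CPM in the dKO lines. The 4 lowest groups did not overlap with each other or with any other group, whereas neighbours such as dKO-8 with SNX631 and dKO-19M overlapped. The read-through transcript that shares exons with AXIN2 stood at 0.214 to 0.269 of the AXIN2 level in all 16 groups. In FBS with vehicle Rv1-Luc exceeded Rv1-WT by 1.94 (fold 3.84, adjusted p = 7.2e-37). The mean of dKO-8 and dKO-19 exceeded Rv1-WT by 3.57 (fold 11.9, adjusted p = 1.61e-52), in a comparison added after the values were seen.

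LEF1 was higher than in Rv1-WT by 0.71 in Rv1-Luc (adjusted p = 4.82e-14) and by 0.74 in the active dKO lines (adjusted p = 7.14e-17). RNF43 and LGR4 were lower, at -0.68 (adjusted p = 9.76e-10) and -0.39 (adjusted p = 0.000192) in Rv1-Luc, and at -0.46 (adjusted p = 2.21e-07) and -0.93 (adjusted p = 3.58e-15) in the active dKO lines. With read-through counts added, the RNF43 call in Rv1-Luc was lost (-0.46), and the value in the active dKO lines was -0.29. CTNNB1 was lower in Rv1-Luc (-0.32, adjusted p = 8.77e-12) but not in the active dKO lines (0.05, 95% interval -0.0047 to 0.11). TCF7L2 (0.78, adjusted p = 9.22e-11) and AXIN1 (0.46, adjusted p = 1.93e-12) were higher in the active dKO lines. For Rv1-Luc 3 of 9 genes were called and 7 changed, where 17.8% and 52.5% of all genes did, and for the active dKO lines 4 were called and 8 changed, where 23.1% and 60.5% did. The 5 fibroblast markers summed to 15 to 26.5 CPM in Rv1-WT, 9.28 to 15.8 CPM in Rv1-Luc and 3.05 to 6.1 CPM in the dKO lines. In Rv1-WT this was mostly LUM (11 CPM) and COL1A1 (7.54 CPM), and COL1A2, COL3A1 and DCN averaged at most 0.703 CPM in any line. These sums and those of the B-cell markers moved with line. The part of these markers in the differences was not tested.

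NKD1 was above 0 in 31 of the 48 libraries. Its group means ran from 0.0155 to 0.127 CPM, and no group could be told from another at this depth.

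A further 100 pathway genes in 8 lists were followed, of which 84 were tested. With SNX631, 5 rose and 1 fell as calls in Rv1-WT in FBS (7.14% of the 84, against 2.39% of all genes), and 9 rose and 2 fell in CSS (13.1% against 4.23%). In Rv1-Luc 7 rose and 2 fell in FBS (10.7% against 3.67%), and 5 rose and 2 fell in CSS (8.33% against 4.06%). In dKO-8 a single gene fell (1.19% against 1.71%), in dKO-19 4 rose (4.76% against 3.41%), and in the kinase-dead lines none was called (0.015% and 0.09% of all genes). Their medians lay between -0.03 and 0.08 on the log2 scale. In Rv1-WT in CSS, calls came from the lists of ligands (2 up and 1 down of 14 tested), receptors (2 up and 1 down of 15), secreted agonists and antagonists (3 up of 11) and other target genes (2 up of 10). The lists of the destruction complex (14 tested), nuclear partners (13), adhesion partners (5) and Wnt secretion (2) had no call there.

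Among ligands, WNT2 was called in 5 of 6 kinase-active settings with log2 changes of 0.89 to 1.91, and in dKO-8 its change was 0.70 (adjusted p = 0.0721). WNT7B was called in the same 5 settings (0.59 to 1.59) and rose by 0.56 in dKO-8 (adjusted p = 0.0124). Among receptors LGR5, like LGR4 a receptor of R-spondins, rose in Rv1-WT by 1.58 with androgen and 2.38 without (adjusted p = 1.71e-17 and 4.6e-23) and by 0.82 and 1.32 in Rv1-Luc (adjusted p = 0.000124 and 1.72e-07), where LGR4 had values of -0.22 to -0.45. FZD4, a Frizzled receptor, was called in Rv1-WT (0.59 with androgen and 1.25 without). DKK1, a secreted inhibitor of the LRP co-receptors, was called in Rv1-Luc in FBS (0.61) and dKO-19 (1.51), and SFRP4, a secreted Wnt-binding protein, in Rv1-WT in CSS (2.702) and Rv1-Luc in FBS (1.81), from vehicle means of only 0.130 and 0.386 CPM that make these folds imprecise. APC2, a relative of the scaffold APC, fell in both media in Rv1-Luc (-0.64 and -0.66).

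Of the 10 other target genes tested, CD44 and SOX9 were called in the same direction in at least 2 settings, CD44 up and SOX9 down. CD44, a cell-surface adhesion receptor, was called in both media in Rv1-Luc (0.83 and 0.71) and dKO-19 (0.99). SOX9, a transcription factor, fell as a call in Rv1-WT in FBS (-0.69) and in Rv1-Luc in CSS (-0.60) but rose in dKO-19 (0.42, adjusted p = 0.000109).

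**Figure D5:**
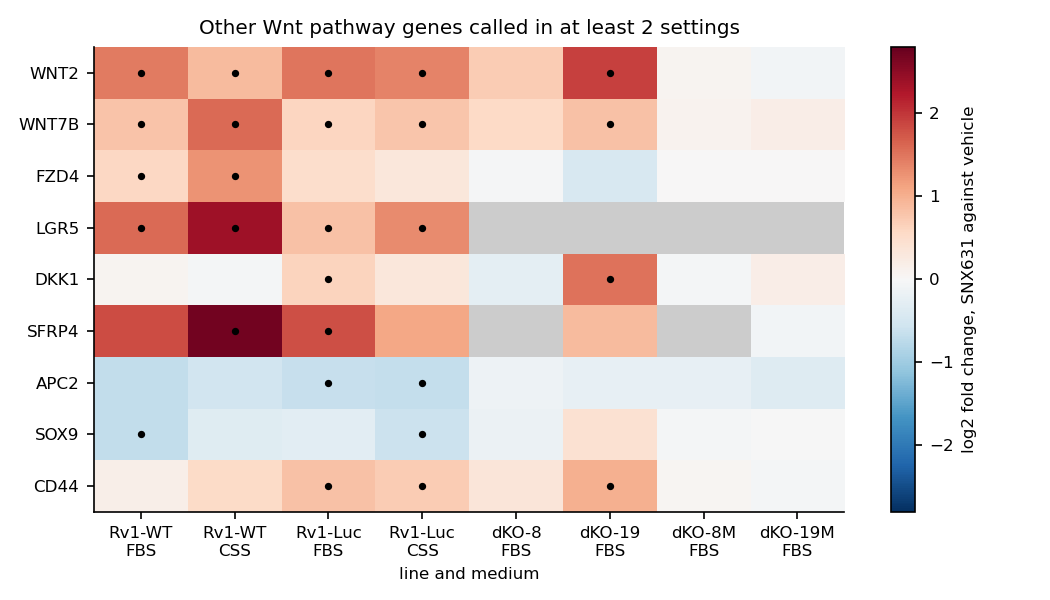
Log2 fold changes of SNX631 against vehicle as colour for the 9 other pathway genes (rows) called in the same direction in at least 2 kinase-active settings, in the 8 combinations of line and medium (columns). A dot marks a call, and grey marks cells where both group means were below 0.5 CPM. None of the dots lies in dKO-8, dKO-8M or dKO-19M, and WNT2 and WNT7B have 5 each.

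In the contrasts without inhibitor, depletion called 5 genes up and 7 down in Rv1-WT (14.3% of the 84, against 10.9% of all genes) and 1 up and 1 down in Rv1-Luc (2.38% against 1.49%). In Rv1-WT, WNT7B (-1.56), WNT10B (-0.79), LGR5 (-1.22), FZD9 (-0.92) and KREMEN2 (-0.59), a co-receptor of Dickkopf proteins, fell, while DKK1 (1.18), TNKS (0.62), a tankyrase that destabilises axins, and the nuclear cofactors CREBBP (0.89) and TLE1 (0.85) rose. LGR5 thus had the opposite sign to LGR4, at 0.97. In Rv1-Luc the gene that rose was TNFRSF19 (1.11). Rv1-Luc against Rv1-WT gave 4 calls up and 19 down (27.4% of the 84, against 17.8% of all genes), with 7 of 15 receptors down (FZD1 -0.85, LGR5 -2.23). CD44 (-2.98), SOX9 (-2.17), CDH2 (-3.68), WIF1 (-3.15), RSPO4 (-2.22), WNT5A (-2.44) and TNKS2 (-0.66) were lower in Rv1-Luc, in contrast to AXIN2 and LEF1, and WNT2 was higher (0.82).

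Kinase-dead against active lines gave 6 calls up and 6 down for CDK8 (14.3% of the 84, against 7.03% of all genes) and 9 up and 6 down for CDK19 (17.9% against 7.6%). DKK1 was higher in both kinase-dead lines (1.91 and 1.18), and FZD4 was lower in both (-1.07 and -0.82). For CDK8, WNT3 (1.66), APCDD1 (1.33), a membrane inhibitor of Wnt, and CDH2 (0.73) were higher, and WNT5A (-3.54, at a mean of 0.104 CPM in dKO-8M against 1.35 CPM), TLE1 (-2.33) and ASCL2 (-0.80) were lower. For CDK19, TCF7L1 (1.50), CD44 (1.33), SOX9 (0.99), WNT7B (1.21), WNT2 (1.20) and FZD8 (0.77) were higher and KREMEN1 (-0.59) was lower.

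The genes most like each member were found by the Pearson correlation of group means of log2 CPM over the 16 groups, which share libraries, lines and treatments. For AXIN2 they were TINAGL1 (r = 0.985), RPSAP54 (0.983) and IGF2BP1 (0.98), and for RNF43 they were ARHGEF3 (0.963), CRIP2 (0.884) and CLU (0.882). For LEF1 they were SLC35C2 (0.882), LRRC37B (0.875) and CEP131 (0.873), and for LGR4 THNSL2 (0.97), COBLL1 (0.969) and C17orf107 (0.966). CTNNB1 was nearest to LEMD3 (0.97), AXIN1 to HINFP (0.969), ZNRF3 to KLHL8 (0.917), TCF7 to TMED9 (0.885) and TCF7L2 to SUV39H1 (0.972). Among the members themselves the closest pair was AXIN1 and TCF7L2 (r = 0.922), and AXIN2 and LGR4 were opposed (r = -0.928). These values are a description only.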

How the data were processed

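RNA from 48 cultures (biological triplicates of 16 groups) was made into directional libraries and counted by the authors, and the deposited table holds expected counts per gene, of which 81.6% of the values above 0 are whole numbers. The submitters' processing notes name FastQC, cutadapt 2.8, STAR 2.7.2b, featureCounts (Subread 2.0.3) and the build GRCh38.p13. The annotation release and the rule for shared reads are not given in the sources used here. Fractional counts were rounded to whole numbers, which leaves reads shared by overlapping genes split as deposited. Depth was 13.2 to 31.5 M (M for 1000000) counts per library, and the biological coefficient of variation was 4.2%.

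Genes were kept by filterByExpr (minimum count 10, total 15), scaled by TMM and fitted with a mean per group over all 48 libraries by edgeR's robust quasi-likelihood test (edgeR 4.0.16, R 4.3.3, 32 residual degrees of freedom), with p adjusted by Benjamini and Hochberg's method for the 20009 genes in 24 comparisons separately, and 2 more were added after the values were seen. All tests were two-sided. P-values measure the spread between triplicate cultures of a line. CPM are TMM-scaled. The script was tested on simulated data. Alternatives were RLE scaling, library size only, no filter, DESeq2 1.42.0, the compared libraries alone, truncation, thinning, a replicate block, a test against a 1.5-fold change, leaving out each library, and adding read-through counts, which was chosen after the values were seen.

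The members and lists were chosen with earlier results of these data known. Besides the members, the text names pathway genes called in the same direction in at least 2 kinase-active SNX631 settings, the 2 calls of lowest p per list (mean of at least 1 CPM) in the contrasts without inhibitor, and the 3 genes nearest to each member in pattern. The correlation of deviations from group means between same-numbered libraries was 0.411, 0.223 and 0.167 in dKO-19M, where replicate 1 with vehicle stood apart. It reached 0.331 in Rv1-Luc and 0.216 in Rv1-WT for single pairs. Whether the numbers mark paired cultures cannot be told from these values. Positions are from GENCODE release 29 and promoter windows from RefSeq.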

Additional observations from a re-analysis of the deposited data

Results flagged for a closer look

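The effect of a treatment differed between groups, by a direct test of the difference, for the following genes and contrasts, all from edgeR's quasi-likelihood fit. The SNX631 effect on RNF43 in Rv1-WT was larger in CSS than in FBS by 0.53 (adjusted p = 0.0023), with all 3 treated libraries above all 3 vehicle libraries in both media. The LEF1 effect in FBS, Rv1-Luc minus Rv1-WT, differed by -0.40 (adjusted p = 0.0119).

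Between a line with an active kinase and its kinase-dead partner, the RNF43 effect differed by 0.63 for CDK8 (adjusted p = 7.65e-05), by 0.82 for CDK19 (adjusted p = 3.36e-07) and by 0.72 for both averaged (adjusted p = 4.27e-10). The AXIN2 effect differed by -0.29 (adjusted p = 0.00136), by -0.51 (adjusted p = 9.56e-09) and by -0.40 (adjusted p = 4.11e-10) in the same contrasts. With read-through counts added the RNF43 differences were 0.34, 0.59 and 0.46.

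The effect of androgen depletion with vehicle, Rv1-Luc minus Rv1-WT, differed for CTNNB1 by 0.47, for AXIN2 by 0.43, for ZNRF3 by 0.30, for LGR4 by -0.85, for LEF1 by 0.85 and for TCF7 by 1.34, with adjusted p between 4.77e-12 and 0.00864. With all libraries thinned to the smallest total, all interactions tested kept 6 calls and 14 changes among the members.

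In the comparison added after the values were seen, the SNX631 effect in FBS in the active dKO lines, against that in Rv1-WT and Rv1-Luc, differed for AXIN2 by -0.78 (adjusted p = 4.78e-19) and for AXIN1 by -0.17 (adjusted p = 0.0218).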

How the results depend on the processing

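No effect of the 9 tested genes that passed as reported or under an alternative turned its direction under the alternatives run. The AXIN2 call in Rv1-WT in CSS and the AXIN2 call between dKO-19M and dKO-19, both close to a fold of 1.5, were lost with library size as the only scaling and with no filter on low counts. The number of calls between kinase-dead and active lines was 2 with library size only against 4. Changes in the kinase-dead lines under SNX631, 0 as reported, came to 1 with library size only, 2 with no filter, 2 with only the compared libraries, 2 with DESeq2 and 0 to 1 with a library left out, and to 1 with replicate numbers as a block (LEF1 in dKO-19M). Over all lines, correlations of same-numbered libraries ran from -0.161 to 0.411, and 11 of 48 exceeded 0.1, in dKO-19M, Rv1-Luc and Rv1-WT. The block moved no other count of calls or changes by over 1.5 times. Tested directly against a 1.5-fold change, the calls fell to 3 of the 7 in kinase-active settings, 1 of the 6 in depletion, 0 of the 4 between kinase-dead and active lines, 1 of the 3 between Rv1-Luc and Rv1-WT and 1 of the 6 among interactions. With each library left out in turn, calls ranged from 6 to 8 in kinase-active settings, from 3 to 5 between kinase-dead and active lines and from 5 to 7 among interactions, stayed at 6 in depletion and at 3 for Rv1-Luc against Rv1-WT, and changes ranged from 20 to 22, 9 to 12, 13 to 15, 13 to 16 and 5 to 7 in the same order. Over single effects under the other settings 1863 of 1924 kept their side of the threshold, 23 no longer passed and 38 newly passed. Effects that passed in neither fit could change sign. The SNX631 effect on RNF43 in dKO-19M, for example, was 0.0181 as reported and -0.0585 with read-through counts added. Counts of all genes called moved by over 1.5 times under the direct test in all 26 comparisons and under the compared libraries alone in 7. With no filter 4 moved, and with thinning or DESeq2 2 each. In 13 of 267 fits that left out 1 library they moved too (0 to 1.94 times). Those moved with no filter, thinning, DESeq2 or a library left out were all dKO-8M and dKO-19M SNX631 effects or the 2 interactions of the Rv1-Luc effect. In dKO-8M the 3 calls became 14 with the compared libraries alone, 6 with no filter and 1 with thinning or DESeq2. In dKO-19M the 18 became 1, 32 and 10. With the compared libraries alone, depletion in Rv1-Luc called 198 genes with vehicle against 298 and 184 with SNX631 against 303. The difference in SNX631 effect between dKO-8 and dKO-8M then called 299 genes against 181. Under the direct test the 342 to 846 genes called per kinase-active setting became 62 to 215, and the 2174 of depletion in Rv1-WT with vehicle became 630. The depth limits NKD1, at 0 to 6 counts, and TCF7, whose group means were 2.50 to 6.02 CPM.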
